A study of Caenorhabditis elegans with 9 samples.

Results

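Among the transcripts of Caenorhabditis elegans larvae, 6 genes, sax-2, haf-6, F27C1.2, W10G11.3, F23F12.12 and sshk-1, had been picked because mutants of the 2 enzymes of O-GlcNAc cycling moved them in opposite directions from the wild type. Each gene has 1 probe set on the array, so the members are 6 of 22548 probe sets tested, and 6 of 17118 genes measured. A probe set is a group of short probes read together for 1 transcript, and its values are given here as log2 signals, on which a difference of 1 means a doubling. Since the members were chosen on their differences between strains in these same arrays, those differences are given as a description, without a test.

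The arrays were made from fourth-stage (L4) larvae, the last larval stage, which had been fed. The wild type was set beside ogt-1(ok430), a loss of the O-GlcNAc transferase, and oga-1(ok1207), a loss of the O-GlcNAcase, with 3 arrays for each strain. Every array held the RNA of 20 whole larvae, of like age as judged from the vulva, so a value is an average over all tissues of pooled animals. Each mutant strain is represented by a single allele, and the labels call the arrays biological replicates without saying whether they came from separate cultures.

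O-GlcNAc is a single sugar that is added to, and taken off, many proteins of the nucleus and cytoplasm. One enzyme, encoded by ogt-1, attaches it, and another, encoded by oga-1, removes it, so loss of the first abolishes the modification and loss of the second lets it build up. Transcription factors and chromatin proteins are among the proteins known to carry it.

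Roles could be stated for 2 of the members. The product of sax-2 is a very large conserved protein of the Furry family, which works with the NDR-type kinase SAX-1 to keep sensory neurons in shape and to limit the neurites they send out. The product of haf-6 is a half-molecule ABC transporter needed for efficient RNA interference. The annotation used here gives F27C1.2, W10G11.3 and F23F12.12 only a sequence name and sshk-1 only a symbol, so no role is stated for them. They lie on 4 chromosomes: sax-2 and F23F12.12 on III, which also holds ogt-1, haf-6 and F27C1.2 on I, W10G11.3 on II, and sshk-1 on V. RefSeq lists 2 transcripts for sax-2 and for F27C1.2, 3 for haf-6 and 1 for each of the other 3 genes, and the array values do not separate transcripts. The probe set of F23F12.12 is of the kind that may contain probes matching other sequences, so its signal could include other transcripts.

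The pattern has 2 forms, held by 3 members each. The signal of sax-2, haf-6 and F27C1.2 was lowest in ogt-1 mutants and highest in oga-1 mutants. For W10G11.3, F23F12.12 and sshk-1 the order was the reverse. In all 6 the 3 wild-type arrays lay between the 2 mutants, with no overlap between strains. Over all probe sets, 3.49% had this full separation with the wild type in the middle, 2.35% with ogt-1 mutants lowest and 1.14% with ogt-1 mutants highest. The members' count against these shares says nothing beyond how they were picked.

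Of the members that were lower in ogt-1 mutants, sax-2 lay about midway in the wild type. Its log2 signal was 6.22, 6.29 and 6.42 on the wild-type arrays, 5.02, 5.43 and 5.27 on the ogt-1 arrays, and 7.66, 7.13 and 7.20 on the oga-1 arrays. The first oga-1 array was the highest of the 9, and the nearest arrays of different strains were 0.71 apart. The ogt-1 arrays averaged 5.24 ± 0.21 (SD, n = 3), those of the wild type 6.31 ± 0.10 (SD, n = 3), and the oga-1 arrays 7.33 ± 0.29 (SD, n = 3). These gave differences from the wild type of -1.07 in ogt-1 mutants and 1.02 in oga-1 mutants, each with a standard error of 0.15, or 2.10-fold lower and 2.03-fold higher. The distance from ogt-1 to the wild type was 51.2% of the whole distance between the mutants.

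The transporter gene haf-6 had the smallest spread between replicates of the members. The ogt-1 arrays read 4.35, 4.45 and 4.60, the wild-type arrays 5.77, 5.69 and 5.68, and the oga-1 arrays 6.27, 6.14 and 6.32. The ogt-1 arrays stood 1.08 below the lowest wild-type array, and the oga-1 arrays 0.37 above the highest. Its differences from the wild type were -1.25 and 0.53 (standard error 0.09), or 2.38-fold lower and 1.44-fold higher. The step on the ogt-1 side thus made up 70.3% of the distance. The lowest signal on an array lay between 3.49 and 3.61, and the ogt-1 values of haf-6 were within about 1 unit of it.

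The smallest difference in ogt-1 mutants among the members was that of F27C1.2. The wild-type arrays read 9.47, 9.19 and 9.64, the ogt-1 arrays 8.70, 9.02 and 9.16, and the oga-1 arrays 10.26, 10.12 and 10.40. Only 0.03 separated the highest ogt-1 array from the lowest wild-type array, whereas the oga-1 arrays were 0.49 clear of the wild type. The means differed from the wild type by -0.47 and 0.83 (standard error 0.14), or 1.39-fold lower and 1.77-fold higher.

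Among the members that were higher in ogt-1 mutants, W10G11.3 stood farthest above the wild type there. The ogt-1 arrays read 8.51, 8.61 and 8.69, the wild-type arrays 6.997, 7.19 and 7.19, and the oga-1 arrays 6.60, 6.43 and 6.62. The ogt-1 arrays were 1.32 above the highest wild-type array, and the oga-1 arrays 0.38 below the lowest. Its differences were 1.48 and -0.58 (standard error 0.10), or 2.79-fold higher and 1.49-fold lower, with 72.0% of the distance on the ogt-1 side.

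The largest difference between the mutants was that of F23F12.12, and most of it lay on the oga-1 side. The wild-type arrays read 10.37, 10.38 and 9.58, the ogt-1 arrays 11.01, 10.40 and 11.08, and the oga-1 arrays 8.47, 8.33 and 8.51. The second ogt-1 array was only 0.02 above the highest wild-type array, and the third wild-type array stood well below the other two. The oga-1 arrays, by contrast, had an SD of 0.09 and lay 1.07 below the lowest wild-type array. Its differences from the wild type were 0.72 and -1.67 (standard error 0.22), or 1.65-fold higher and 3.19-fold lower. Between the mutants the gap was 2.39, or 5.25-fold. The pooled SD of F23F12.12 within strains, 0.345, exceeded that of 98.0% of probe sets.

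The steps of sshk-1 were of like size on both sides. Its wild-type arrays read 7.14, 7.04 and 6.68, the ogt-1 arrays 7.68, 7.69 and 7.49, and the oga-1 arrays 6.18, 6.26 and 6.14. The third wild-type array was again the lowest of its group, and the nearest arrays of different strains were 0.35 apart. The differences were 0.67 and -0.76 (standard error 0.12), or 1.59-fold higher and 1.69-fold lower.

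**Figure D1:**
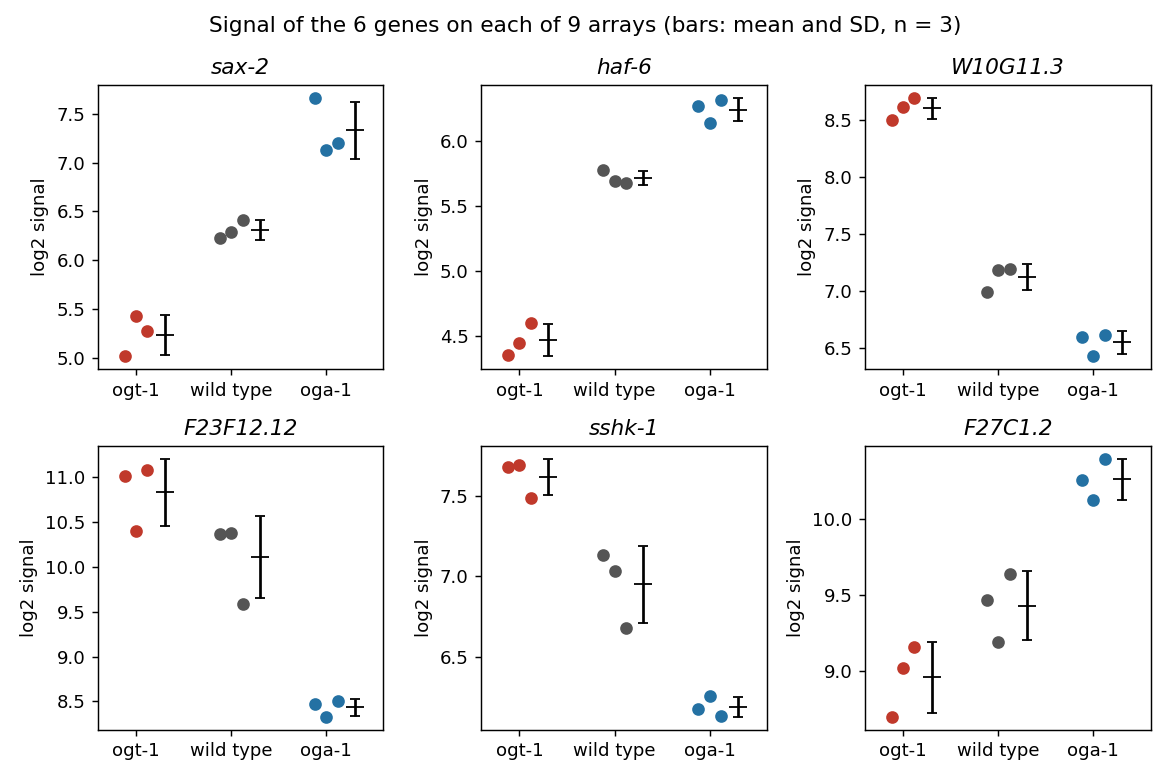
Log2 signal of the 6 genes on each of the 9 arrays, 1 panel per gene, with ogt-1 mutants in red, the wild type in grey and oga-1 mutants in blue. Points are arrays and the bars beside them give the mean and SD of 3 arrays. The wild-type points lie between the mutants in every panel, by a margin of only 0.02 for F23F12.12 and 0.03 for F27C1.2 on the ogt-1 side.

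Some of the 6 genes differed in which mutant stood farther from the wild type. The ogt-1 step was the larger for haf-6 and W10G11.3, and the oga-1 step for F23F12.12 and F27C1.2. For sax-2 and sshk-1 the steps were of like size, and which was larger could turn with 1 array. Without ogt-1 array 1, the sax-2 differences were -0.96 and 1.02. Without wild-type array 1, those of sshk-1 were 0.76 and -0.67. The shares on the ogt-1 side ran from 30.1% for F23F12.12 to 72.0% for W10G11.3. For comparison, the median absolute difference over all probe sets was 0.13 in ogt-1 mutants and 0.11 in oga-1 mutants, and the median pooled SD within strains was 0.14. Of the 6 genes, 4 had a pooled SD above that median, and haf-6 and W10G11.3 had one below it.

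Fitted with limma over all probe sets, all 6 members passed a Benjamini-Hochberg adjusted p under 0.05, the threshold for a call here, in each comparison of 2 strains. They had been picked for opposite differences from the wild type on these arrays, so these calls are no separate finding. Among all probe sets, the share called was 17.3% for ogt-1 mutants (8.1% higher, 9.15% lower) and 0.257% for oga-1 mutants (0.191% higher, 0.0665% lower). Between the mutants 23.9% were called, 9.63% higher and 14.2% lower in ogt-1 mutants. The same wild-type arrays enter both comparisons with a mutant. Opposite calls in the mutants were made for 15 probe sets, 0.0665% of those tested, with 9 lower in ogt-1 mutants (0.0399%) and 6 higher (0.0266%). After quantile normalization this split was 8 lower and 14 higher, and after median centring it was 6 and 2. In the same direction 27 probe sets were called in both mutants, or 0.12%.

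Calls of the members in both mutants at once depended on single arrays. The ogt-1 calls of sax-2, haf-6, W10G11.3 and sshk-1, and those of all members between the mutants, held whichever array was left out. The members were picked on these same values and the fits share most arrays. Calls that held are thus a description of the fits and no support for the members. Of 17 alternative settings, the ogt-1 call held in 8 for F23F12.12 and in 9 for F27C1.2. The oga-1 call held in 6 for haf-6 and W10G11.3, 9 for F27C1.2, 12 for sshk-1, and 14 for sax-2 and F23F12.12. Since the strains do not overlap in any member, leaving out an array cannot turn a sign. The opposite signs thus held in all 9 such fits by construction. The number of members called in both mutants fell to 0 without wild-type array 1 or without wild-type array 2. It was 2 without wild-type array 3 (sax-2 and sshk-1), without oga-1 array 1 and without oga-1 array 3 (F23F12.12 and sax-2 in both), and 3 without ogt-1 array 2 or oga-1 array 2. It was 4 without ogt-1 array 1 and 5 without ogt-1 array 3. The total of oga-1 calls in these fits was 58 with all arrays (43 higher and 15 lower, or 50 and 41 after quantile normalization), 9 without wild-type array 1, 13 without wild-type array 2 and 21 without oga-1 array 1.

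**Figure D2:**
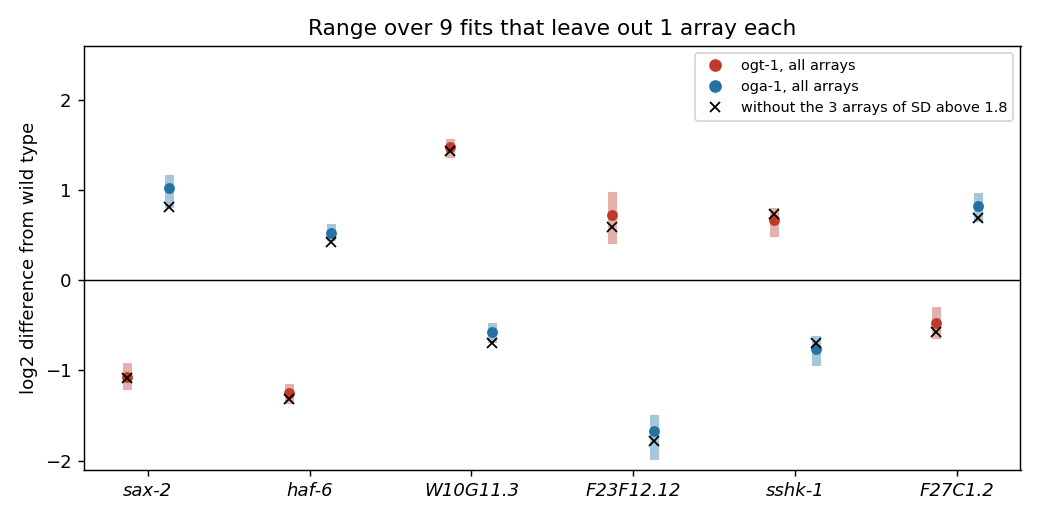
Log2 difference from the wild type for each of the 6 genes, in ogt-1 mutants (red) and oga-1 mutants (blue). Dots are the values from all 9 arrays, thick bars span the 9 fits that leave out 1 array each, and crosses are the values without the 3 arrays whose SD over probe sets was above 1.8. No bar crosses zero, which the lack of overlap fixes, and the bar of F27C1.2 in ogt-1 mutants, from -0.59 to -0.34, comes nearest.

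Array means were equal at 5.91, and the arrays of a strain correlated at 0.990 to 0.994 over probe sets, as a description. The SD over probe sets was above 1.8 on ogt-1 array 3 and on oga-1 arrays 1 and 3. Leaving these 3 out keeps a single oga-1 array, whose spread is then taken from the other strains. In that fit none of the 6 genes was called in both mutants. The 3' minus 5' signal of the actin controls, which reads how far the amplified RNA reached, was 4.04 ± 0.12 (SD, n = 3) on ogt-1 arrays, 4.20 ± 0.26 (SD, n = 3) on oga-1 arrays and 4.77 ± 0.05 (SD, n = 3) on wild-type arrays. Each mutant lay below the wild type with no overlap (two-sided exact permutation p = 0.1 for each, the smallest that 3 against 3 arrays allow). The same measure of the Gapdh controls was 2.87 ± 0.13 (SD, n = 3) in ogt-1, 3.12 ± 0.16 (SD, n = 3) in oga-1 and 3.24 ± 0.10 (SD, n = 3) in wild-type arrays. There ogt-1 lay below the wild type (exact permutation p = 0.1), and oga-1 overlapped it (exact permutation p = 0.2). The bacterial hybridisation controls averaged 9.11 in the wild type, 9.38 in ogt-1 and 9.14 in oga-1 mutants. The part of these array properties in the members' values was not tested.

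The targeted genes were read as a check of the labels. The brighter ogt-1 probe set fell by 0.87 in ogt-1 mutants (limma adjusted p = 8.9e-05) and differed by 0.04 in oga-1 mutants, and the other fell by 0.42. The 3 oga-1 probe sets were dim, differed by -0.32, -0.25 and -0.28 in oga-1 mutants, and were not called. Whether these probes lie inside the deletions is not known here. Neither targeted gene followed the pattern of the members: on no probe set of either were the 3 strains fully separated with the wild type between.

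Markers of oocytes had the same order of strains as sax-2, haf-6 and F27C1.2. The mean log2 signal of the 7 oocyte markers, which include the maturation factors oma-1 and oma-2 and the yolk receptor rme-2, was 10.07 to 10.34 on ogt-1 arrays, 10.57 to 10.72 on wild-type arrays and 10.77 to 10.98 on oga-1 arrays. In ogt-1 mutants 4 of the 7 fell and none rose, with a median of -0.39, where 9.72% of genes fell and 8.65% rose. In oga-1 mutants, where 0.269% of all genes were called, limma called none and the median was 0.25. In such bulk samples fewer oocytes and less RNA per oocyte cannot be told apart, and the part of the oocyte signal in the values of the 3 genes was not tested.

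No other tissue list separated all 3 strains. The mean of 7 sperm markers ran from 10.90 to 10.96 on ogt-1 arrays, 10.27 to 10.90 on wild-type arrays and 10.54 to 10.76 on oga-1 arrays, with 2 of 7 higher in ogt-1 mutants. For 6 neuronal markers the means were 5.91 to 5.96, 5.81 to 5.94 and 5.96 to 5.99 for the wild type, ogt-1 and oga-1. For 5 intestinal markers, with 1 higher and 1 lower in ogt-1 mutants, they were 8.949 to 9.305, 9.062 to 9.236 and 8.975 to 9.175, and for 5 markers of yolk and adult cuticle 12.67 to 12.84, 12.41 to 12.72 and 12.72 to 12.96. Of these yolk and cuticle markers 2 fell in ogt-1 mutants (median -0.33), where 9.72% of all genes fell and 8.65% rose. Between the mutants 2 of them were lower in ogt-1 mutants, where 14.7% of all genes were lower and 10.3% higher. Other lists also held calls between the mutants: 2 neuronal, 1 body muscle and 1 L4 molt marker were lower, and 2 sperm markers were higher. Of the intestinal markers, 1 was higher and 1 lower there. Body muscle (4 markers), hypodermis (3) and the L4 molt (5) also overlapped between strains. No list had a called member in oga-1 mutants, where 0.269% of all genes were called. The lowest marker signal was that of unc-31, a neuronal secretion factor, at a mean of 4.65, and the parts of these tissues in the members' values were not tested.

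The other 9 probe sets with opposite calls name 7 single genes. Those lower in ogt-1 and higher in oga-1 mutants were cyp-35C1 (-0.57 and 1.01) and cyp-35A5 (-0.52 and 0.79), cytochrome P450s, and cec-4 (-0.68 and 0.78), a chromodomain protein that holds heterochromatin at the nuclear edge. The same direction was seen in ari-1.4 (-0.49 and 0.78), an Ariadne-type ubiquitin ligase, and in the splicing genes rbm-25 (-0.44 and 0.53) and snr-2 (-0.35 and 0.45). Higher in ogt-1 and lower in oga-1 mutants were nlp-33 (0.40 and -0.94), a neuropeptide-like antimicrobial peptide, and 2 probe sets that list 3 genes each (1.64 and -0.68, and 2.25 and -0.61). These values were selected on the same differences as those of the members, by their calls, and no test is given for them.

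Second probe sets did not always repeat the pattern of these other genes. That of snr-2, the brighter one, differed by -0.04 and 0.26, and neither difference was called. The brighter probe set of cyp-35C1 differed by -0.85, called, and 0.49, not called, and that of ari-1.4 by -0.44 and 0.76, with neither called. The 6 members have no second probe set by which to repeat the reading. In mean size over both mutants the members ranged from 0.65 for F27C1.2 to 1.196 for F23F12.12, and the 9 others from 0.40 for snr-2 to 1.43 for one of the unnamed probe sets.

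**Figure D3:**
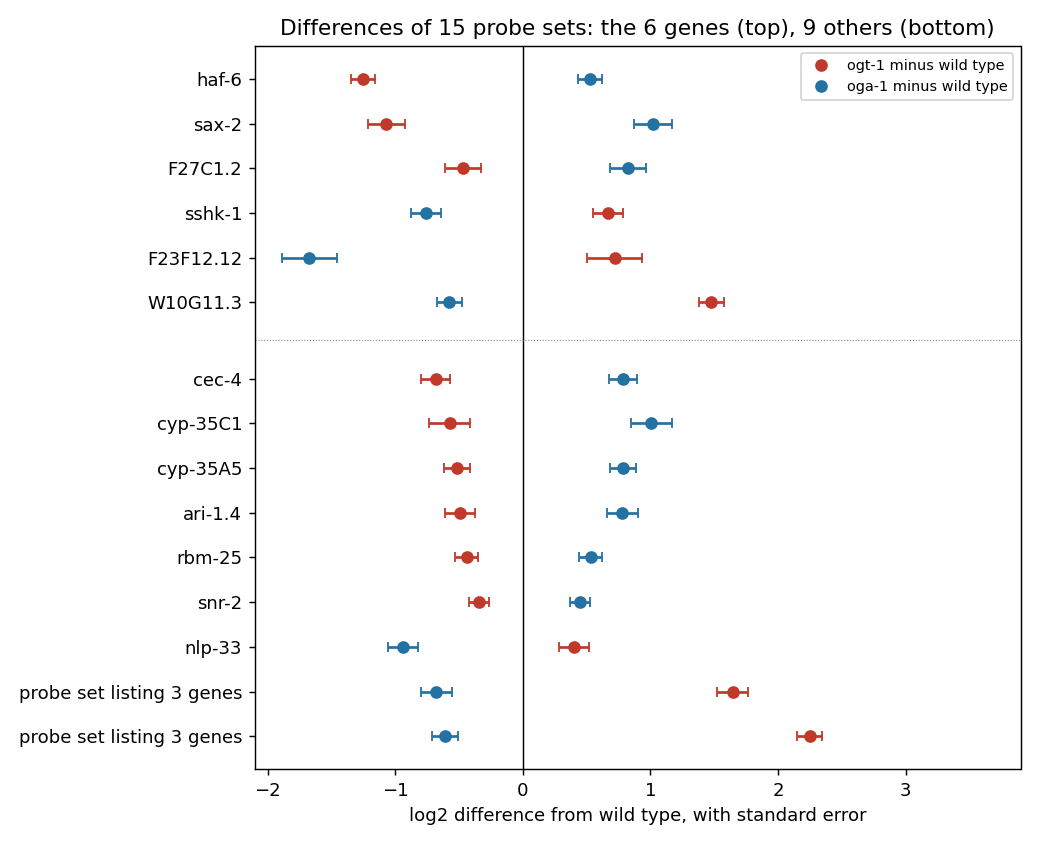
Log2 difference from the wild type of the 15 probe sets called in opposite directions, the 6 genes above the dotted line and the 9 others below it. Red is ogt-1 minus wild type, blue is oga-1 minus wild type, and bars are standard errors of the fit. The red and blue points of each row lie on opposite sides of zero, which is how the rows were chosen. The widest pair among the 6 genes is that of F23F12.12, at 0.72 and -1.67.

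Genes with the nearest pattern were found by centring each probe set on its own mean and taking the root mean square difference from the member over the 9 arrays, where 0 is an identical pattern. The size of a member's own pattern on this scale ran from 0.56 for F27C1.2 to 1.04 for F23F12.12. The nearest to sax-2 was haf-6, itself a member, at 0.26, followed by the alpha-tubulin gene tba-4 at 0.27. The nearest to haf-6 were F39F10.3 at 0.15 and, again, tba-4 at 0.17. The tba-4 signal averaged 6.05 ± 0.20 (SD, n = 3) on ogt-1, 7.12 ± 0.15 (SD, n = 3) on wild-type and 7.61 ± 0.25 (SD, n = 3) on oga-1 arrays. The oga-1 differences of tba-4 (0.49) and F39F10.3 (0.45) were not called.

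For F27C1.2 the nearest genes were cec-4 at 0.14 and zhp-2, a regulator of meiotic crossing-over, at 0.16. The zhp-2 differences of -0.37 and 0.57 were not called. For W10G11.3 they were R11D1.3 at 0.14 and dod-23, a gene named as downstream of the FOXO factor DAF-16, at 0.19. Their differences were 1.61 and -0.58 for R11D1.3 and 1.4996 and -0.73 for dod-23, with the oga-1 values not called in either. For sshk-1 they were nlp-33 at 0.16 and fip-2, of a family named for induction by fungal infection, at 0.17. Both probe sets of fip-2 rose in ogt-1 mutants, by 0.64 and 1.08, and neither was called in oga-1 mutants (-0.48 and -0.37).

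The likeness was weakest for F23F12.12. Its nearest genes were rrn-3.1, which encodes the large ribosomal RNA, at 0.40, and F08D12.2 at 0.47. The rrn-3.1 probe set nearest to it differed by 1.36 in ogt-1 mutants and by -1.12, not called, in oga-1 mutants. The other 4 probe sets of rrn-3.1 differed by 0.11, 0.25, 1.52 and 1.45 in ogt-1 mutants and by 0.28, -0.65, -0.65 and -0.50 in oga-1 mutants, so the brightest did not share the pattern. The nearest probe set has the same kind of name as that of F23F12.12, which marks possible matches to other sequences.

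**Figure D4:**
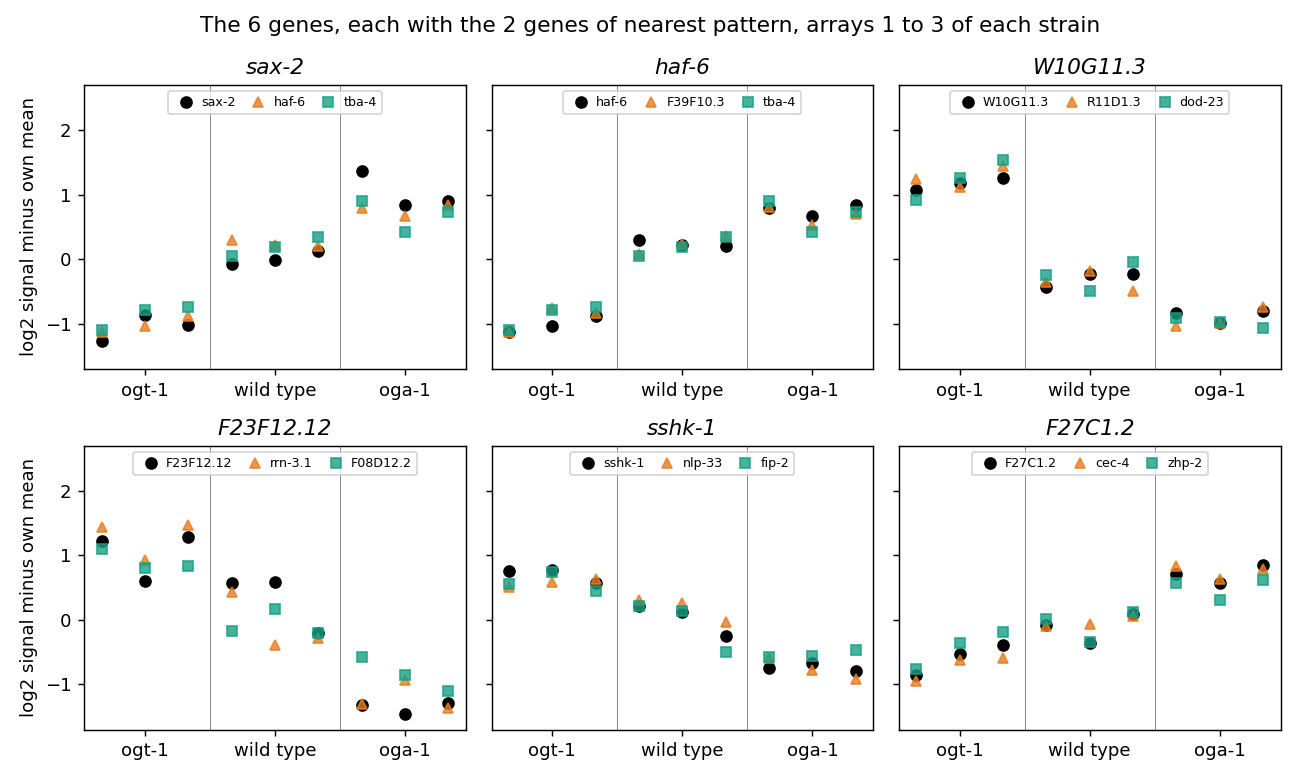
Log2 signal of each of the 6 genes (black circles) and of the 2 genes with the nearest pattern (orange triangles and green squares), each minus its own mean over the 9 arrays, with arrays 1 to 3 of each strain from left to right. The 2 nearest genes lie 0.14 to 0.27 (root mean square) from the member in 5 panels, and 0.40 and 0.47 from it in the panel of F23F12.12.

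Among relatives of sax-2, 1 gene was called. Of 8 measured genes that encode NDR and LATS kinases with their partners or that carry the sax name, 1 rose in ogt-1 mutants and none fell, where 18.4% of genes were called, and the median was -0.05 against -0.02 for all genes. In oga-1 mutants, where 0.269% of all genes were called, limma called none of them, and none had an unadjusted p under 0.05. How many of all genes would pass at that unadjusted p was not worked out. The kinase gene sax-1 differed by -0.01 and 0.05, with standard errors of 0.13. The riser was sax-3, which encodes the Robo-type guidance receptor, at 1.48 ± 0.18 (standard error; limma adjusted p = 2.2e-04). Its dimmer probe set rose by 0.42, and the call held in all 17 alternatives run for it.

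Relatives of haf-6 were called only between the mutants. None of the 7 other haf genes was called in either mutant against the wild type. Of all genes, 18.4% were called in ogt-1 mutants, and 0.269% in oga-1 mutants (0.204% higher and 0.0643% lower). At an unadjusted p under 0.05 with limma, 1 of the 7 would pass in ogt-1 mutants and 0 in oga-1 mutants. How many of all genes would pass at that p was not worked out. Between the mutants 3 of the 7, haf-1, haf-3 and haf-4, were lower in ogt-1 than in oga-1 mutants, where 14.7% of genes were. This count ranged from 0 (without ogt-1 array 1) to 4 (without wild-type array 3) when 1 array was left out, and it was 1 without wild-type array 2, ogt-1 array 2 or oga-1 array 1. It was 0 without the 3 arrays of SD above 1.8. The differences were -0.30, -0.51 and -0.36, against -1.78 for haf-6. The list median was -0.30, against 0.02 for all genes. The call of haf-3 (limma adjusted p = 0.016) was lost without ogt-1 array 1 or oga-1 array 1 (adjusted p = 0.0591 and 0.0686, limma). That of haf-4 was lost without wild-type array 2, ogt-1 array 1 or 2, or oga-1 array 3 (adjusted p = 0.0582 to 0.155, limma), with the 2 strains alone (0.0587), after quantile normalization (0.142) and with an intensity trend and robust variance (0.0697). Its other probe sets were not called. The haf-1 gene was named after its values were seen.

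Among 47 other ABC transporter genes, 3 fell and 0 rose in ogt-1 mutants, where 9.72% of all genes fell and 8.65% rose. None of the 47 was called in oga-1 mutants, where 0.269% of all genes were, and 9 had an unadjusted p under 0.05 with limma. For that unadjusted p the share of all genes was not worked out, so the 9 cannot be read as an excess. Of the 3 that fell, pmp-5, a peroxisomal transporter (-2.25, standard error 0.38), and the P-glycoprotein gene pgp-9 (-0.74, standard error 0.15) had the smallest p. Both were called in every fit that left out 1 array. The ogt-1 arrays of pmp-5 varied widely, with an SD of 1.06 (n = 3) against 0.24 (n = 3) in the wild type. The 3 became 2 without wild-type array 1, without wild-type array 2 or without ogt-1 array 2, 5 without oga-1 array 2, and 6 with array weights. Between the mutants 9 were lower and 2 higher in ogt-1 mutants, where 14.7% and 10.3% of all genes were, with a median of -0.08 against 0.02 for all genes. Without oga-1 array 1 these counts were 4 and 0, without ogt-1 array 2 they were 6 and 0, and without the 3 arrays of SD above 1.8 they were 2 and 0. Examples were mrp-8 (-0.57) and, higher, wht-8 (0.53) and pgp-15 (0.30). The wht-8 call was lost without wild-type array 2 or without array 1 or 2 of either mutant (limma adjusted p = 0.0502 to 0.122). The pgp-15 call was lost without any array other than wild-type array 3 and ogt-1 array 3 (limma adjusted p = 0.0501 to 0.185).

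Genes of RNA interference, the process in which haf-6 acts, were lower in ogt-1 than in oga-1 mutants in 12 of 32 and higher in 1, where 14.7% and 10.3% of genes were. The 12 became 8 without ogt-1 array 2 or oga-1 array 1, and 4 without the 3 arrays of SD above 1.8. The list median was -0.28, against 0.02 for all genes. Against the wild type, 5 fell and 1 rose in ogt-1 mutants, where 9.72% and 8.65% of all genes did (median -0.17, against -0.02 for all genes). The 5 became 3 without ogt-1 array 1 or wild-type array 2 and 10 with array weights. Limma called none in oga-1 mutants (median 0.16), where 0.269% of all genes were called, and 9 of the list had an unadjusted p under 0.05. As the share of all genes at that unadjusted p was not worked out, the 9 cannot be read as an excess. The mutator gene rde-2, with which haf-6 interacts genetically, differed by -0.55 between the mutants (standard error 0.10, limma adjusted p = 0.0025), and by -0.53 on its other probe set. Against the wild type rde-2 differed by -0.21 and 0.34, with neither called. Another mutator gene, mut-7, differed by -0.07 and 0.18 from the wild type and by -0.24 between the mutants (standard error 0.11), with none called. The mut-7 gene was named after its values were seen. Several genes of this list act in the germline. All 7 oocyte markers given above were also lower in ogt-1 than in oga-1 mutants. The part of the oocyte signal in the values of this list was not tested.

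Single genes of the RNA interference list changed in both directions in ogt-1 mutants. The helicase gene drh-3, needed to make secondary small RNAs, fell from 7.38 ± 0.09 to 6.92 ± 0.10 (SD, n = 3), and its oga-1 arrays averaged 7.60 ± 0.10 (SD, n = 3). The exonuclease gene eri-1, which restrains RNA interference, fell by 0.55 on its brighter probe set and differed by 0.13 on the other. The gene sid-5, which helps silencing spread between cells, rose by 1.197 (limma adjusted p = 1.9e-04). No member of these 4 lists was called in opposite directions in the 2 mutants, where 0.0665% of all probe sets were.

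Position on the chromosome was a property that the choice of members did not use. The 3 nearest measured genes on each side of the 6 members, 36 in all, were called in ogt-1 mutants in 6 cases, 16.7%, against 18.4% of all genes. In oga-1 mutants limma called 0 of the 36, against 0.269% of all genes. At that share a set of this size would mostly hold none. The differences of the 36 there ran from -0.55 to 0.42, and 9 had an unadjusted p under 0.05 with limma. The share of all genes at that unadjusted p was not worked out, so the 9 cannot be read as many or few. Between the mutants 7 were called, 19.4% against 25.0%. No neighbour was called in opposite directions, where 0.0665% of all probe sets were.

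Calls among neighbours lay beside W10G11.3, sax-2 and F27C1.2. The gene W10G11.2, next to W10G11.3, rose from 5.54 ± 0.16 to 6.40 ± 0.12 (SD, n = 3) in ogt-1 mutants, and its oga-1 arrays averaged 5.20 ± 0.06 (SD, n = 3). Its differences were 0.87 (limma adjusted p = 1.7e-04) and -0.33, not called. The next gene on, W10G11.1, differed by 0.34 and -0.55, called only between the mutants (0.88, limma adjusted p = 0.0053), and not without the 3 arrays of SD above 1.8 (adjusted p = 0.132, limma). On the other side W10G11.4 differed by 0.14 and -0.02. The dynactin gene dnc-3, beyond W10G11.1, rose by 0.90 in ogt-1 mutants and differed by 0.37 in oga-1 mutants. It was called in ogt-1 mutants and, at 0.53, between the mutants, the second call being lost without the 3 arrays (adjusted p = 0.0824, limma).

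Near sax-2, F54D8.6 fell by 0.57 in ogt-1 mutants (limma adjusted p = 6.4e-04) and differed by 0.25, not called, in oga-1 mutants, and Y54H5A.2 fell by 0.49. The call of Y54H5A.2 against the wild type was lost without any wild-type array or without ogt-1 array 1 or 2 (limma adjusted p = 0.0574 to 0.152). Between the mutants it differed by -0.60, a call lost without ogt-1 array 2 (adjusted p = 0.0547, limma) or oga-1 array 1 (adjusted p = 0.0518, limma). Between sax-2 and these genes lie dpy-17, a collagen gene, and tbx-2, a T-box factor gene, and neither was called.

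Near F27C1.2, F27C1.4 fell by 0.59 in ogt-1 mutants, and the ATP synthase gene atp-3 rose by 0.39. The call of atp-3 was lost when array 1 or 2 of the wild type, or array 2 or 3 of ogt-1, was left out (limma adjusted p = 0.0604 to 0.12). Between the mutants F27C1.4 (-0.43) lost its call without oga-1 array 1 (adjusted p = 0.0541, limma), and F27C1.3 (0.51) lost it without any 1 of 5 arrays (limma adjusted p = 0.0527 to 0.15). These 5 were wild-type array 2, ogt-1 arrays 1 and 2 and oga-1 arrays 1 and 2. Its call was also lost with the replicate block (adjusted p = 0.0542, limma) and after median centring (adjusted p = 0.0617, limma). None of the neighbours of haf-6, F23F12.12 or sshk-1, 6 for each, was called in either mutant. Their differences in ogt-1 mutants ran from -0.19 to 0.15 beside haf-6, from -0.15 to 0.18 beside F23F12.12 and from -0.22 to 0.26 beside sshk-1. In oga-1 mutants the ranges were -0.01 to 0.28, -0.07 to 0.11 and -0.22 to 0.24, in the same order. The neighbours of F23F12.12 were dim, with wild-type means of 4.43 to 5.79, which limits what their lack of calls can show.

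**Figure D5:**
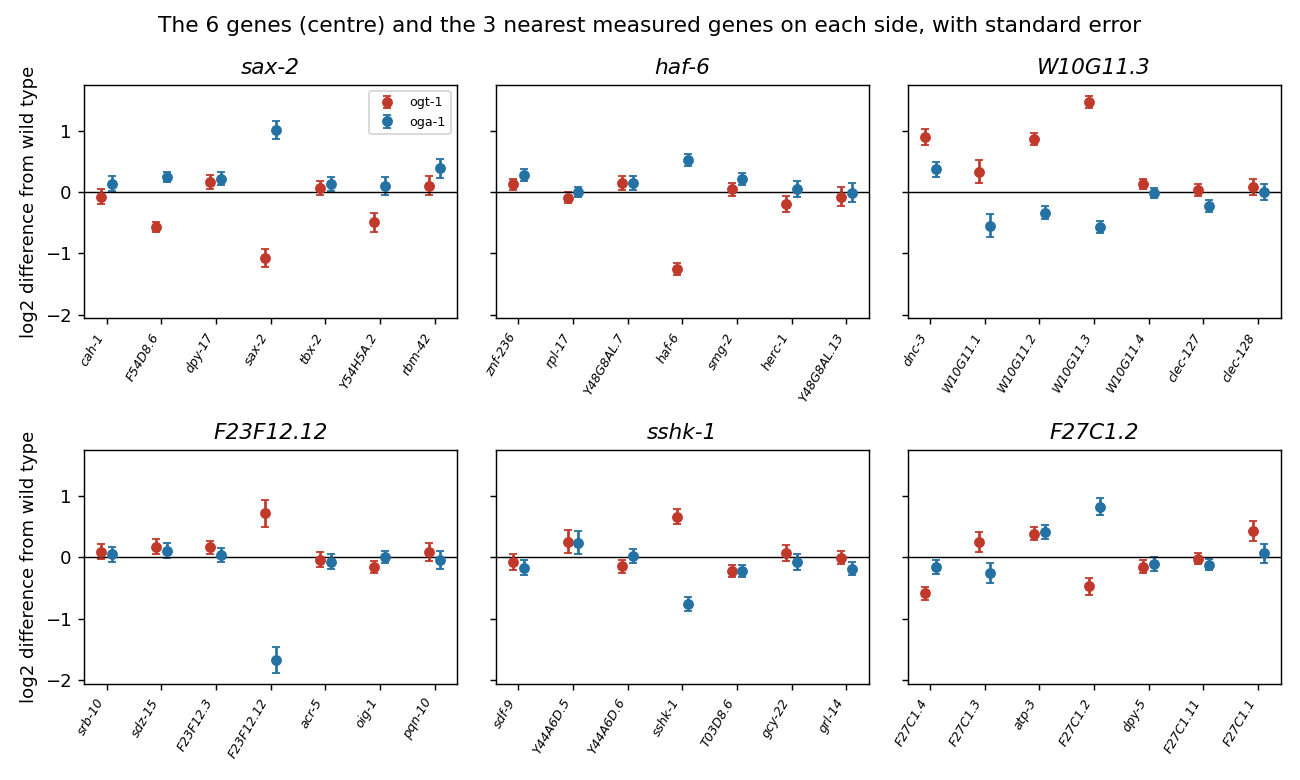
Log2 difference from the wild type, with standard error, of each of the 6 genes (centre of its panel) and of the 3 nearest measured genes on each side in chromosome order, in ogt-1 mutants (red) and oga-1 mutants (blue). Beside W10G11.3, W10G11.2 lies at 0.87 and -0.33. No neighbour of haf-6, F23F12.12 or sshk-1 was called in either mutant, and their differences lie between -0.22 and 0.28.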

How the data were processed

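The deposited values are log2 probe set signals with equal array means, a property read from the values, and the submitters' processing notes name MAS5, RMA and Partek without a role, order or version. Which of them made the table, and the genome build, are not given in the sources used here. No array scans were used.

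Control probe sets (77 of 22625) were left out, and no filter was set. Symbols came from the platform annotation, with 20701 of 20766 single-gene probe sets matched by gene identifier to the RefSeq gene table (WBcel235), which gave names, chromosomes and gene order, and no coordinates are printed. The brightest probe set stood for a gene.

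The linear model of limma 3.58.1 under R 4.3.3 was used (strain only, 9 arrays, 6 residual degrees of freedom). Calls are two-sided, at a Benjamini-Hochberg adjusted p under 0.05 over all probe sets in a comparison, and "rose" and "fell" refer to calls. The fit was tested on simulated data. The number of arrays limits precision: the median standard error of a difference was 0.11. P-values measure the spread between these arrays.

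The members, lists and tests were chosen with earlier results of these data known. The rule for other names took the 2 genes nearest in pattern to each member, up to 2 called genes per direction of each list, called neighbours, other opposite calls and the targeted genes. Lists of copper-related genes, which rested on an unannotated role for F27C1.2, and a list by product description were not used. No sequence or promoter was analysed here. Alternative settings changed the scaling (quantile, median), the variance model (trend, robust, array weights), the probe sets (brighter ones only), the arrays (2 strains alone, left-out arrays), the thresholds, or added the replicate number as a block. Probe sets listing several genes were not named.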

Additional observations from a re-analysis of the deposited data

How the results depend on the processing

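After quantile normalization and after median centring the 6 genes kept the sign of each difference, and leaving out or weighting arrays could not turn it, since the strains do not overlap. Of the 6, 2 (sax-2 and sshk-1) were called in both mutants with the 2 groups alone and after median centring, 4 with array weights, and 5 after quantile normalization and with an intensity trend and robust variance. These counts only describe the fits, as the genes were picked on the same values. By more than the pooled SD within strains, only the oga-1 differences of haf-6 (0.43) and W10G11.3 (-0.69) moved, both without the 3 arrays of SD above 1.8. Counts of calls depended more on the processing. In ogt-1 mutants 3891 probe sets were called (2710 to 4149 leaving out 1 array), and 2052 at a minimum of 1.5-fold. In oga-1 mutants 58 were called (9 to 89 leaving out 1 array), 91 after quantile normalization, 94 with an intensity trend and robust variance, 848 with array weights, 3 without the 3 arrays of SD above 1.8, and 198 at an adjusted p under 0.1. Between the mutants 5381 were called (3827 to 5581 leaving out 1 array), 2544 without the 3 arrays and 2664 at 1.5-fold. Opposite calls numbered 15 (0 to 16 leaving out 1 array), 9 with the 2 groups alone, 8 after median centring, 151 with array weights, 0 without the 3 arrays (376 probe sets at unadjusted p under 0.05 in both, limma), 47 at an adjusted p under 0.1 and 6 at 1.5-fold. The causes of these shifts were not tested. Besides the losses given with each gene, calls were lost after median centring for Y54H5A.2 against the wild type (adjusted p = 0.0809, limma), wht-8 (0.0697) and pgp-15 (0.063), after quantile normalization for pgp-15 (0.0675), with the 2 groups alone for pgp-15 (0.0694), and with trend and robust variance for atp-3 (0.0547). Without the 3 arrays of SD above 1.8, calls between the mutants were lost for haf-3, haf-4, mrp-8, wht-8, pgp-15, F27C1.4 and Y54H5A.2, and the ogt-1 call for atp-3 (limma adjusted p = 0.0524 to 0.252).

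Equal replicate numbers did not pair the arrays: deviations of the 9 same-numbered pairs had r between -0.173 and 0.244, and only 3 of the 9 arrays matched their own number best. Adding the block gave 4039, 77, 5578 and 16 calls in the order above (replicate block), and 5 of the 6 genes in both mutants, haf-6 being lost. For the called neighbours and list genes, the alternatives were chosen after seeing the data, and 58 of 488 such values lost the call while none changed sign. Low signal limits haf-6 in ogt-1 mutants, and haf-1 in all strains. A two-sided exact permutation test of 3 against 3 arrays cannot go below 0.1.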
